A study of Homo sapiens with 18 samples.

Results

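The enzymes that turn farnesyl pyrophosphate into squalene and squalene into cholesterol were followed through their transcripts in HepG2, a human liver cell line derived from a hepatoblastoma. The members were the 9 rows of the count table with the symbols FDFT1, SQLE, LSS, CYP51A1, MSMO1, NSDHL, HSD17B7, EBP and DHCR7, out of 35238 gene rows, and all 9 passed the filter on low counts that left 14797 genes. The cells had received either ligands studied for LRH-1, a nuclear receptor of the liver, or a vehicle, in 6 groups of 3 libraries. The groups were DMSO at 0.1%, 6N at 10 µM, 10CA at 10 µM, 6N-10CA at 10 µM, ethanol at 0.1% and DLPC at 100 µM, the last a phospholipid (dilauroylphosphatidylcholine) and the middle 3 small molecules. All groups share the cell line and a medium with charcoal-stripped serum, a serum depleted of small lipophilic molecules such as steroids. The sources used here give no treatment time, nor whether replicates were separate cultures, and the spread behind each p-value may therefore be technical. The labels do not tie vehicles to compounds. From knowledge of the study, the 3 small molecules were set against DMSO, and DLPC against ethanol.

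Cholesterol is built from acetyl-CoA in the cytosol and the endoplasmic reticulum. The mevalonate arm makes isoprenoids that also feed other products, whereas squalene synthase, FDFT1, commits them to sterols. SQLE then epoxidises squalene, LSS closes the sterol rings to form lanosterol, CYP51A1, MSMO1, NSDHL and HSD17B7 remove methyl groups from lanosterol, EBP moves a double bond and DHCR7 reduces the last one of its branch. The genes of both arms are classic targets of SREBP2, a membrane-bound transcription factor released when sterols in the endoplasmic reticulum are low, which acts at sterol regulatory elements together with NF-Y, a factor that binds CCAAT boxes, and Sp1, which binds GC boxes. The liver is a main site of this synthesis and also uses cholesterol for bile acids and lipoproteins.

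Because the members moved together in the counts described below, the bases before their start sites are shown. RefSeq promoter windows of 300 bases (250 before the start and 50 after, build GRCh38.p14) were matched by symbol for 7 of the 9 members: LSS, CYP51A1, MSMO1, NSDHL, HSD17B7, EBP and DHCR7. Stretches of these windows that lie outside the exons of GENCODE 29 are printed 5′ to 3′ on the strand of the gene, with capitals for CCAAT boxes (CCAAT or its complement ATTGG) and GC boxes (GGGCGG or CCGCCC). They are those of LSS, the member with the largest fall, DHCR7, the member with the largest rise, MSMO1 and NSDHL, with several CCAAT boxes, and CYP51A1, with none.
LSS: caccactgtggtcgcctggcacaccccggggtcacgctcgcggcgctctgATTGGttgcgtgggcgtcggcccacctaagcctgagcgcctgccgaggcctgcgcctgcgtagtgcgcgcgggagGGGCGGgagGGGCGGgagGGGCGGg
DHCR7: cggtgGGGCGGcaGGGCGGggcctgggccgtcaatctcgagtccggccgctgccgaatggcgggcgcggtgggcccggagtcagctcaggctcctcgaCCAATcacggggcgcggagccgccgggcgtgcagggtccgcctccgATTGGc
MSMO1: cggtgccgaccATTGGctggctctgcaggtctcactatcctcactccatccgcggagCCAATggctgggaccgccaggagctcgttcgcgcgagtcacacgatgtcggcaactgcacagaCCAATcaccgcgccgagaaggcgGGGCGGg
NSDHL: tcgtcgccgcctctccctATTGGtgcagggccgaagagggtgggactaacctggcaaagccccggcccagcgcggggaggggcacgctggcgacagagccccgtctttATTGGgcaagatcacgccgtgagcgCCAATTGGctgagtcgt
CYP51A1: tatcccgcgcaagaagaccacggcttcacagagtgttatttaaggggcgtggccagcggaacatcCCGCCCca
The LSS stretch is chr21:46228825-46228974, minus strand. The DHCR7 stretch is chr11:71448436-71448585, minus strand, before one of 2 RefSeq start sites of this gene. The stretch before the other start site, chr11:71449044-71449193, held neither box and is not printed. The MSMO1 stretch is chr4:165327473-165327622, plus strand, that of NSDHL is chrX:152830817-152830966, plus strand, and that of CYP51A1 is chr7:92134531-92134603, minus strand.

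Over the whole windows and both strands, CCAAT was present for 6 of the 7 members, all but CYP51A1, and for 39.7% of 27305 genes with a window. A gene with several windows was counted if any of them held the letters. GGGCGG was present for 6 of 7, all but NSDHL, and for 48.3% of all. LSS held 7 GC boxes and 1 CCAAT box, MSMO1 4 CCAAT boxes and NSDHL 5. The letters TCACNCCAC, a form of the sterol regulatory element, were in 0 of the 7 windows and in 1.39% of all. TCAAGGNCA, a form of the LRH-1 element, was in 0 of 7 and in 1.46% of all. Other spellings and sites outside these windows were not searched. The matches describe letters and were not tested for binding.

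Total counts were 28135967 to 34992442 per library, and the 9 members together took 0.214% to 0.374% of them. Single members had 1378 to 27243 counts in a library, and the coefficient of variation between libraries of a group had a median of 4.87% (range 0.482% to 10.7%). All 9 hepatocyte markers were detected in every library, from TTR at 139 to 224.5 CPM to TF at 14790 to 21600, with ALB at 8066 to 10510. Of 8 markers of other cell types, the stromal, bile duct and muscle markers COL3A1, KRT7 and DES had at most 4 counts. PTPRC had at most 15 counts and COL1A1 at most 16, while VWF reached 158, PECAM1 493 and CD68 3371. In these bulk samples, fewer cells of a type and less RNA per cell cannot be told apart. Levels are given as CPM, counts scaled to a common library total, after TMM scaling, which evens out differences in library composition. Differences were tested by edgeR (quasi-likelihood, Benjamini-Hochberg adjusted over all genes tested) and called at an adjusted p under 0.05, while the 95% intervals are those of single genes, with no adjustment.

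Summed over the 9 genes, the level ordered the groups with little overlap. The sum was 2084 to 2325 CPM with 6N, 2767 to 2891 with 10CA, 2956 to 3173 with DMSO, 2994 to 3233 with ethanol, 3351 to 3456 with 6N-10CA and 3690.1 to 3852 with DLPC (3 libraries each). Only the ranges of the vehicles overlapped. The values of each gene in each library are plotted by group.

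**Figure D1:**
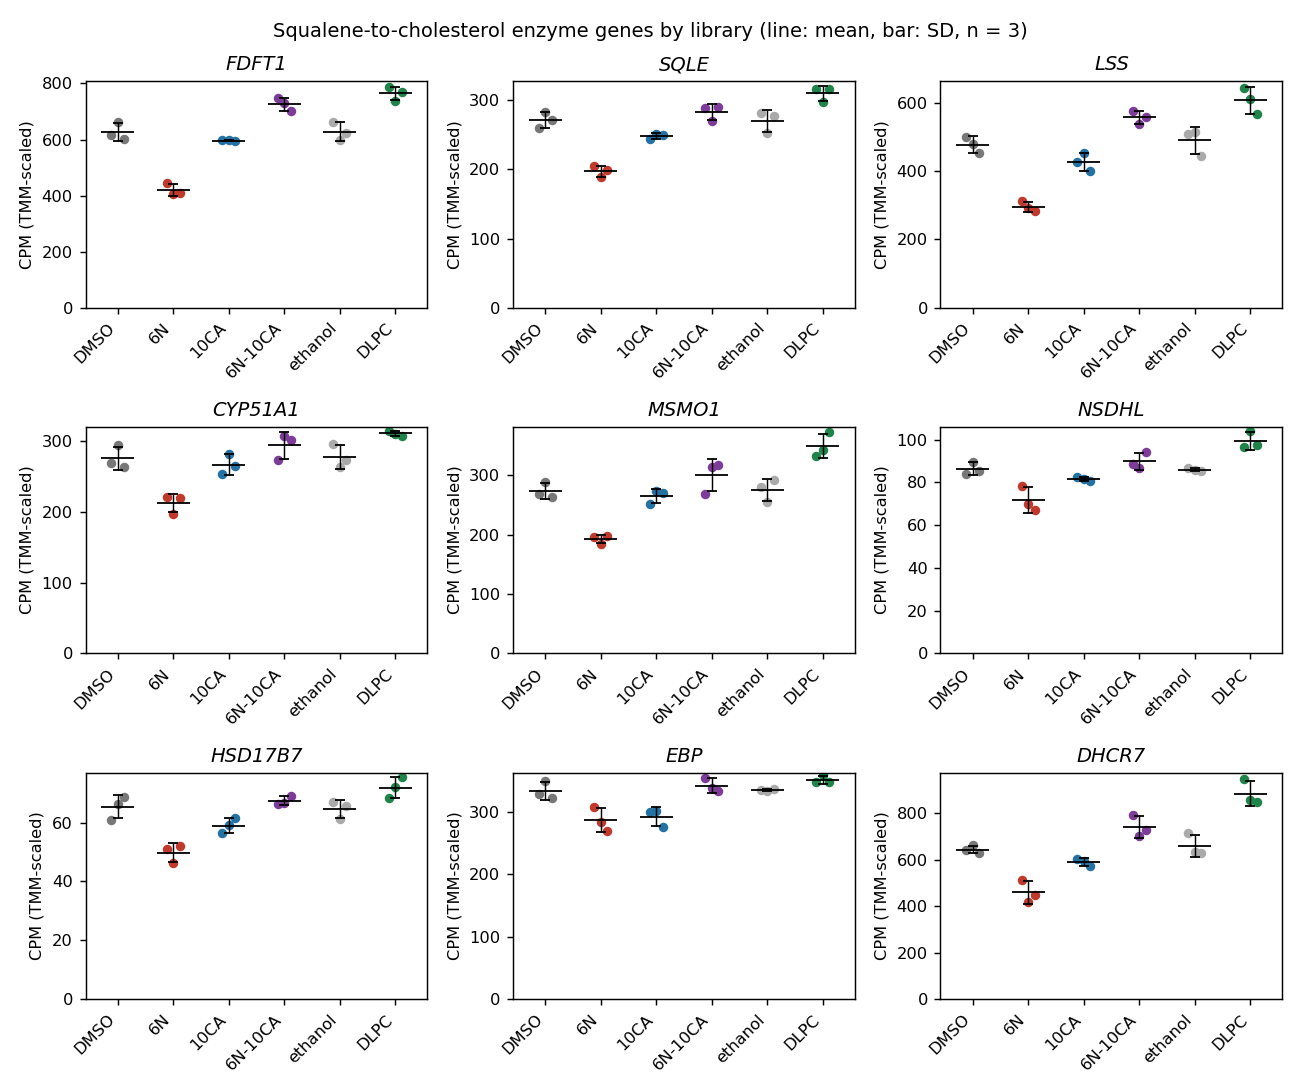
TMM-scaled CPM (y axes, from 0) of each of the 9 genes in the 18 libraries, by group; points are libraries, lines are means and bars SD (n = 3). For every gene the 3 libraries with 6N lie below the 3 with DMSO, and the 3 with DLPC lie above the 3 with ethanol.

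FDFT1, squalene synthase (chromosome 8, 11795573 to 11839309 on GRCh38), is the entry to the sterol branch. It stood at 617, 663 and 601 CPM with DMSO, 443, 407 and 408 with 6N, 599, 597 and 593 with 10CA and 748, 729 and 701 with 6N-10CA. With ethanol it was at 664, 597 and 622 CPM, and with DLPC at 786, 739 and 770.3. The 4 groups of DMSO and the small molecules did not overlap for this gene, in the order 6N, 10CA, DMSO, 6N-10CA. SQLE, squalene epoxidase, a rate-limiting enzyme of the branch (chromosome 8, 124998497 to 125022283), was at 259.7, 283 and 271 CPM with DMSO, 204, 189 and 199 with 6N, 244, 252 and 249.5 with 10CA and 289, 270.4 and 291 with 6N-10CA. Its libraries with ethanol held 281, 252 and 278 CPM and those with DLPC 316, 298 and 317, the latter above every library of the other groups. LSS, lanosterol synthase (chromosome 21, 46188141 to 46228824), was at 501, 478 and 452 CPM with DMSO, 312, 291 and 284 with 6N, 427, 452 and 399.8 with 10CA and 574, 538 and 557 with 6N-10CA. For LSS the ethanol libraries stood at 509, 514 and 444 CPM and the DLPC libraries at 642, 611 and 566, and its 6N libraries were the lowest of all 18.

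CYP51A1, the lanosterol demethylase of the cytochrome P450 family (chromosome 7, 92112151 to 92134803), was at 268, 294 and 263 CPM with DMSO, 220.3, 197 and 219 with 6N, 252, 282 and 265 with 10CA and 272, 307 and 301 with 6N-10CA. Exons of the same-strand gene AC000120.2, which has no row of that name in the count table, share 79.4% of the exon bases of CYP51A1. The counts of CYP51A1 are therefore less certain. The ethanol libraries of CYP51A1 held 295, 263 and 272 CPM and its DLPC libraries 314, 309.7 and 307. The libraries with 6N were below all others, while those with DMSO, 10CA and 6N-10CA overlapped. MSMO1, the methylsterol monooxygenase that starts removal of the paired methyl groups (chromosome 4, 165327623 to 165343160), was at 269, 288 and 263 CPM with DMSO, 195, 184 and 198 with 6N, 252, 273 and 270.0 with 10CA and 269, 314 and 317 with 6N-10CA. With ethanol MSMO1 was at 279, 255 and 291 CPM and with DLPC at 333, 342 and 372. Here too 6N gave the lowest 3 libraries and DLPC the highest 3 of the 18.

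NSDHL, the sterol dehydrogenase that follows MSMO1 (chromosome X, 152830967 to 152869729), was at 83.8, 89.7 and 85.5 CPM with DMSO, 78.3, 70.0 and 66.9 with 6N, 82.4, 81.6 and 80.7 with 10CA and 88.7, 86.5 and 94.4 with 6N-10CA. Ethanol gave 86.7, 86.0 and 85.1 CPM and DLPC 96.6, 104 and 97.5. NSDHL with 6N was below, and with DLPC above, every other library. HSD17B7, the keto-reductase of the same complex (chromosome 1, 162790702 to 162812817), was at 61.0, 66.4 and 68.7 CPM with DMSO, 51.1, 46.2 and 52.2 with 6N, 56.3, 59.1 and 61.5 with 10CA and 66.3, 66.7 and 69.1 with 6N-10CA. Its level was 67.1, 61.2 and 65.6 CPM with ethanol and 68.3, 72.0 and 75.4 with DLPC. The values of HSD17B7 are less certain, since its near-copy HSD17B7P2 has a row of its own with 103 to 228 counts, up to 11.3% of those of the gene, and the counting of shared reads is not given in the sources used here.

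EBP, the sterol isomerase (chromosome X, 48521158 to 48528716), was at 329, 349 and 323 CPM with DMSO, 308, 284 and 269 with 6N, 300.2, 301 and 276 with 10CA and 355, 339 and 333 with 6N-10CA. The ethanol libraries were at 335, 333 and 336 CPM and those with DLPC at 348, 358 and 348. The 6N and 10CA libraries of EBP overlapped, and both groups lay below DMSO. DHCR7, the dehydrocholesterol reductase that ends the pathway (chromosome 11, 71428193 to 71452868), was at 641, 661 and 628 CPM with DMSO, 513, 417 and 449 with 6N, 604, 593 and 571 with 10CA and 793, 700.3 and 728 with 6N-10CA. It reached 715, 632 and 629 CPM with ethanol and 948, 857 and 850.3 with DLPC. As for FDFT1, the groups of DMSO and the small molecules did not overlap, and the 3 DLPC libraries were the highest of the 18.

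Per length, the last enzyme was among the most abundant of the transcripts. In CPM per kb of exon in GENCODE 29, the level with DMSO (mean ± SD, n = 3) was 155 ± 3.99 for DHCR7, 138 ± 5.85 for EBP, 121 ± 6.12 for FDFT1, 94.5 ± 4.54 for MSMO1 and 76.8 ± 4.62 for CYP51A1. The level per kb was 65.9 ± 3.36 for LSS, 63.0 ± 2.70 for SQLE, 43.3 ± 1.52 for NSDHL and 13.7 ± 0.828 for HSD17B7. The libraries of LSS and SQLE overlapped, and no other neighbours in this order did. With 6N, EBP stood first at 119 ± 8.13 and DHCR7 second at 110.4 ± 11.8, with overlapping libraries, and LSS (40.8 ± 2.02) stood below SQLE (45.8 ± 1.86). With DLPC, DHCR7 was at 213 ± 13.1, ahead of FDFT1 at 147 ± 4.63 and EBP at 146 ± 2.51, the last pair overlapping. The exon length counts all annotated isoforms, so that genes with rare long exons read low.

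**Figure D2:**
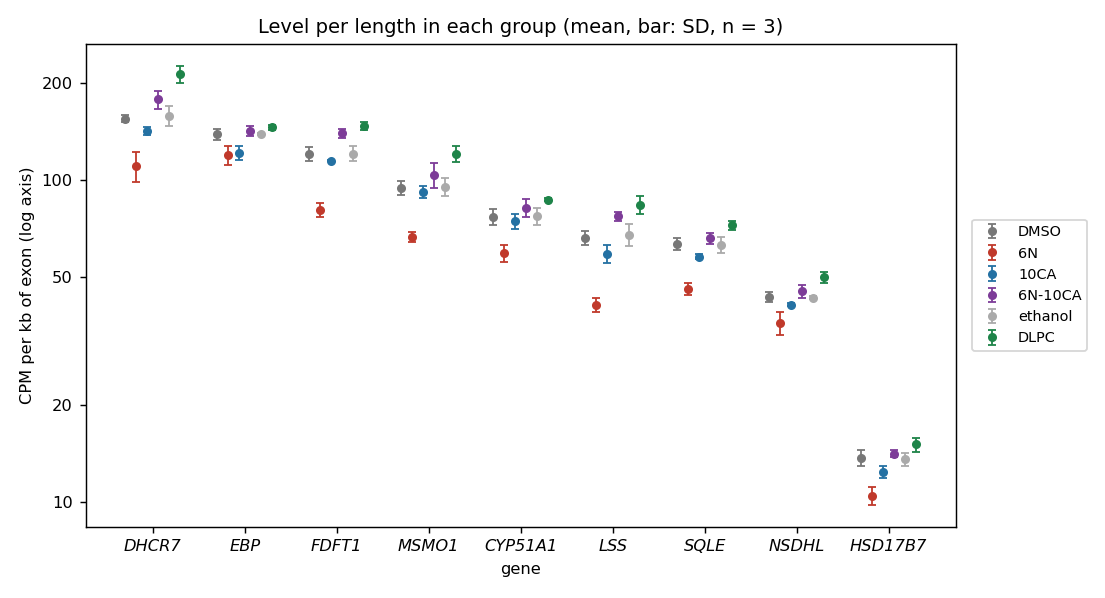
CPM per kb of exon (log axis) of the 9 genes, ordered by the DMSO level; points are group means and bars SD (n = 3). HSD17B7 lies lowest in every group, and DHCR7 highest in every group but 6N.

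With 6N the transcripts of all 9 enzymes fell. The falls were deepest at LSS (-0.69 log2 units, SE 0.06, 38.1% less mRNA) and FDFT1 (-0.58, SE 0.05), followed by MSMO1 (-0.51), DHCR7 (-0.49) and SQLE (-0.46). HSD17B7 changed by -0.39, CYP51A1 by -0.37 and NSDHL by -0.27, and EBP least, by -0.22 (SE 0.05, 14.0% less). The 95% intervals of LSS (-0.82 to -0.56) and EBP (-0.32 to -0.11) did not overlap, although the difference between genes was not tested. The change did not follow the order of the steps: SQLE, the second enzyme, changed less than LSS, the third, and DHCR7, the last, about as much as MSMO1.

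By edgeR 9 of 9 were called lower with 6N, where 0.845% of all genes were called lower and 0.297% higher. Adjusted p-values ran from 4.42e-07 for FDFT1 to 0.0293 for EBP in this test. All 3 libraries lay below the DMSO libraries for 9 of 9, against 7.31% of all genes. The median log2 fold change of the members was -0.46, beside -0.0006 over all genes tested. Leaving out 1 library ended the call of EBP for DMSO replicate 1 or 2 and 6N replicate 2 or 3 (edgeR, adjusted p 0.0915 to 0.171), and that of NSDHL for DMSO replicate 2 and 6N replicate 2 or 3 (0.0744 to 0.0889). The other 7 stayed called each time.

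10CA at the same dose gave small differences that did not pass the test. EBP stood at -0.19 (SE 0.05), from 334 ± 14.1 to 292 ± 14.4 CPM, LSS at -0.16, HSD17B7 at -0.15, SQLE and DHCR7 at -0.13 each, and the other 4 between -0.08 and -0.04. With edgeR 0 of 9 were called, as were 0% of all genes, while 6.98% of all genes had an unadjusted p under 0.05. The smallest adjusted p of a member was 0.573, for EBP. All 3 libraries lay below DMSO for 5 of 9 (FDFT1, SQLE, NSDHL, EBP and DHCR7), against 6.3% of all genes. The 95% interval was -0.29 to -0.09 for EBP, -0.29 to -0.03 for LSS and -0.17 to 0.03 for FDFT1, and the lowest bound of any member was -0.29. DESeq2 called 0 of the 9 as well. An edgeR fit that also held the replicate number as a block called EBP lower, and 0.0879% of all genes.

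With 6N-10CA the 9 genes had positive differences, and 0 of 9 were called. LSS stood at 0.22 (SE 0.06, adjusted p = 0.16 by edgeR), FDFT1 at 0.21 (SE 0.05, adjusted p = 0.0837) and DHCR7 at 0.20, and the libraries of these 3 did not overlap those with DMSO. In the other 6 genes, from MSMO1 at 0.13 to EBP at 0.04, they did. Among all genes 0.264% were called, 0.142% were called higher, 9.91% had an unadjusted p under 0.05 by edgeR, and 7.53% had all 3 libraries above DMSO, and the median of the members was 0.09 beside 0.0007 over all genes. The 95% interval was 0.11 to 0.31 for FDFT1, -0.04 to 0.17 for SQLE and -0.07 to 0.14 for EBP. Which members passed depended on the method, with FDFT1 called by DESeq2 and FDFT1 and LSS in the fit without a filter on low counts. The share of all genes called in those fits was not counted. With the replicate number as a block, edgeR called FDFT1, LSS and DHCR7 higher, and 1.68% of all genes.

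With DLPC at 100 µM 4 of the 9 enzymes rose. DHCR7 rose most, from 659 ± 48.6 to 885 ± 54.6 CPM (mean ± SD, n = 3), a log2 change of 0.43 (SE 0.07) or 34.4% more. MSMO1 rose by 0.34, LSS by 0.31 and FDFT1 by 0.29 (SE 0.05). NSDHL stood at 0.21, SQLE at 0.20, CYP51A1 at 0.16, HSD17B7 at 0.15 and EBP at 0.07, without passing the test. EBP was again the member that differed least, and its 95% interval was -0.03 to 0.17, whereas that of DHCR7 was 0.28 to 0.57.

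By edgeR 4 of 9 were called higher and 0 lower with DLPC, where 0.629% of all genes were called higher and 0.412% lower. The adjusted p was 0.00353 for DHCR7, 0.00478 for FDFT1, 0.0113 for MSMO1, 0.0174 for LSS and 0.0609 for SQLE by this test. All 3 libraries lay above ethanol for 9 of 9, against 9.79% of all genes, and the median was 0.21 beside 0.0011 over all genes. LSS lost its call without ethanol replicate 3, DLPC replicate 1 or DLPC replicate 2 (edgeR, adjusted p 0.0547 to 0.109), and MSMO1 without ethanol replicate 2 or DLPC replicate 3 (0.0863 and 0.0896). The summed level of the 8 markers of other cell types was 122.8 to 131.2 CPM with DLPC and 109.2 to 111.1 CPM with ethanol. CD68 made up most of it, at 104 to 109 CPM with DLPC and 90.0 to 94.1 with ethanol. PECAM1 was at 14.4 to 16.9 CPM with DLPC and 12.2 to 14.0 with ethanol. The libraries of VWF and COL1A1 overlapped. Of the 4 markers tested, 0 were called by edgeR. PTPRC had no more than 15 counts and COL3A1 no more than 4. The part of these 8 markers in the result was not tested.

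**Figure D3:**
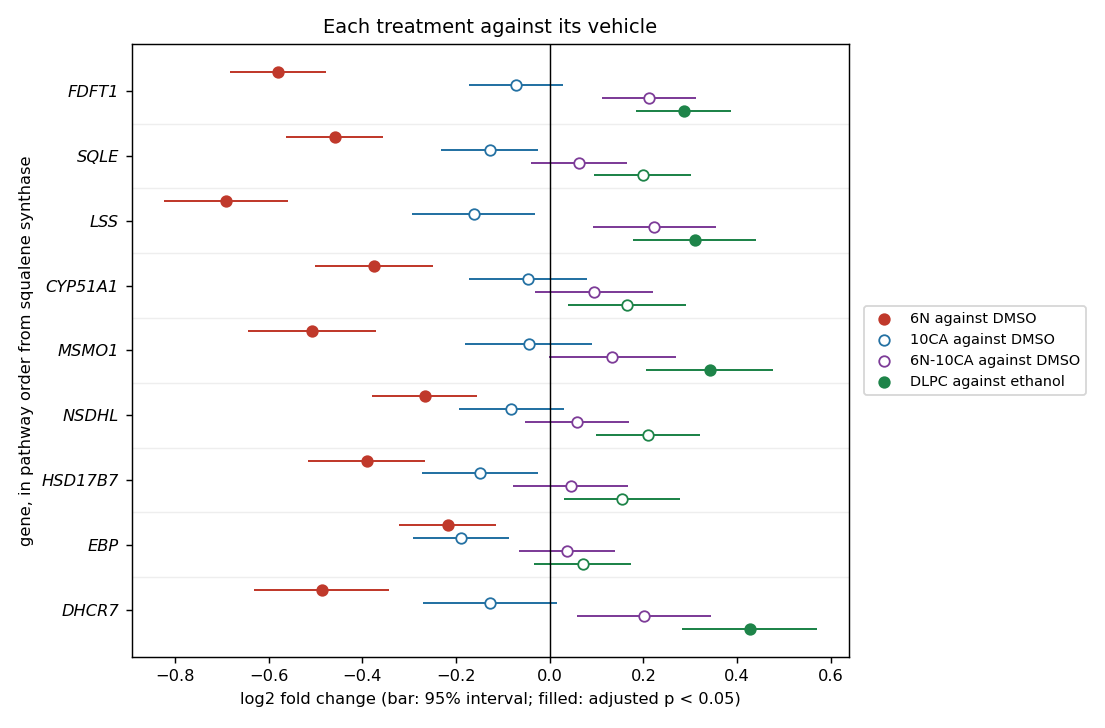
Log2 fold change (x axis) of the 9 genes, in pathway order from top to bottom, for each treatment against its vehicle; bars are 95% intervals and filled points have an adjusted p under 0.05. All 9 points of 6N are filled and below 0, 4 points of DLPC are filled and above 0, and those of 10CA and 6N-10CA are open.

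Between the vehicles these genes differed by less than the spread between libraries. Ethanol against DMSO gave log2 fold changes of -0.02 to 0.04, with a median of 0.0041. By edgeR 0 of 9 were called, as were 0% of all genes, and 3.24% of all had an unadjusted p under 0.05. The widest 95% interval bound was 0.18, for DHCR7, and DESeq2 also called 0 of 9. Against ethanol in place of DMSO, 9 of 9 were called lower with 6N, as were 1.37% of all genes. Against DMSO in place of ethanol 6 of 9 were called higher with DLPC, as were 1.59% of all genes.

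The 3 small molecules were compared directly at their common dose of 10 µM, in 3 pairs. The levels with 10CA were higher than with 6N for 7 genes: LSS by 0.53 (SE 0.06), FDFT1 by 0.51, MSMO1 by 0.46, DHCR7 by 0.36, SQLE by 0.33, CYP51A1 by 0.33 and HSD17B7 by 0.24. NSDHL stood at 0.19 (adjusted p = 0.0919 by edgeR) and EBP at 0.03, with a 95% interval of -0.08 to 0.13. Of all genes 1.05% were called higher and 0.662% lower by edgeR. The libraries did not overlap for 8 of 9, all but EBP, against 8.54% of all genes, and the median of the members was 0.33 beside 0.0039. The call of HSD17B7 (edgeR, adjusted p = 0.0446) was lost in 5 of the 6 fits that left out a library, all but that without 6N replicate 3 (adjusted p up to 0.239), and that of DHCR7 without 6N replicate 2 (0.0598). NSDHL was called without 6N replicate 1 (0.0193).

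Of the 3 pairs, 6N-10CA and 6N had the largest median difference, and all 9 genes differed. LSS was at 557 ± 18.2 CPM with 6N-10CA and 295 ± 14.6 with 6N, a log2 difference of 0.91 (SE 0.06) or 1.88-fold. FDFT1 differed by 0.79, DHCR7 by 0.69, MSMO1 by 0.64 and SQLE by 0.52. CYP51A1 followed at 0.47, HSD17B7 at 0.44, NSDHL at 0.32 and EBP at 0.25 (SE 0.05). By edgeR 9 of 9 were called higher, with adjusted p-values of 4.04e-09 (FDFT1) to 0.00772 (EBP), against 1.12% of all genes called higher and 0.514% lower. The libraries did not overlap for 9 of 9, against 9.03% of all genes, and the median was 0.52 beside 0.0043. EBP lost its call without 6N-10CA replicate 1 (edgeR, adjusted p = 0.0517).

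6N-10CA and 10CA differed in 2 of the genes by this test. LSS was higher with 6N-10CA by 0.39 (SE 0.06, adjusted p = 0.00734 by edgeR) and FDFT1 by 0.28 (SE 0.05, adjusted p = 0.0107). DHCR7 stood at 0.33 (edgeR, adjusted p = 0.0511), EBP at 0.23 and the other 5 between 0.14 and 0.19. The 95% interval was 0.19 to 0.47 for DHCR7 and 0.12 to 0.33 for EBP. The libraries did not overlap for 7 of 9 genes, CYP51A1 and MSMO1 being the others, against 6.51% of all genes, and 0.196% of all genes were called higher and 0.0338% lower by edgeR. The median was 0.19 beside -0.0023 over all genes. Without 10CA replicate 3 or without 6N-10CA replicate 1 the count was 0 of 9, with an edgeR adjusted p for FDFT1 of 0.0757 and 0.0907 and for LSS of 0.0781 and 0.0531. The 3 pairs and the comparisons with DMSO share libraries and are given side by side.

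**Figure D4:**
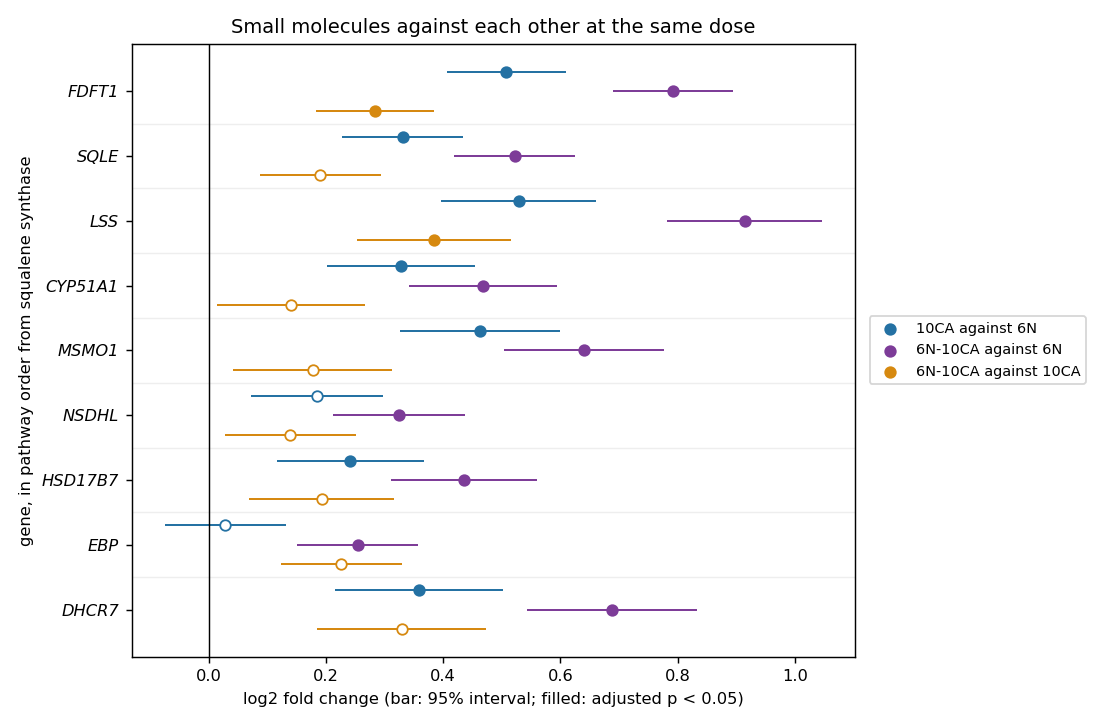
Log2 fold change (x axis) of the 9 genes, in pathway order, for each pair of small molecules at 10 µM; bars are 95% intervals and filled points have an adjusted p under 0.05. All 9 points are filled for 6N-10CA against 6N, 7 for 10CA against 6N and 2 for 6N-10CA against 10CA.

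The rest of the sterol pathway was counted from lists chosen with earlier results of these data known. In the mevalonate arm, 7 of 9 measured genes fell with 6N and 0 rose, among them HMGCS1 (-0.85), which makes HMG-CoA, and MVD (-0.75), which makes isopentenyl pyrophosphate. PMVK (-0.07) and GGPS1 (-0.06), which leads to a non-sterol product, were not called. With DLPC 4 of 9 rose and 0 fell, with MVD at 0.42 and HMGCS1 at 0.35. The median of this arm was -0.52 with 6N and 0.24 with DLPC, beside -0.46 and 0.21 for the squalene-to-cholesterol genes. With 10CA and with 6N-10CA, 0 of 9 were called against DMSO in this arm, and its medians were -0.08 and 0.19. Between compounds 6 of 9 were higher with 10CA than with 6N, 7 with 6N-10CA than with 6N, and 3 (MVD, ACAT2 and HMGCS1) with 6N-10CA than with 10CA, with 0 lower each time. With 1 library left out, edgeR called 7 of the arm lower with 6N every time, 2 or 3 higher with DLPC (ACAT2 lost its call with each of the 6 libraries left out, and HMGCS1 without DLPC replicate 3), and 1 to 4 higher with 6N-10CA than with 10CA. In the last comparison HMGCS1 lost its call without 10CA replicate 1 or 3 or 6N-10CA replicate 2 or 3, and ACAT2 without 10CA replicate 3 or 6N-10CA replicate 1.

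Among 6 other genes of the late steps, 5 fell with 6N and 0 rose. ERG28, a scaffold of the demethylation complex, changed by -0.38 (SE 0.07) and SC5D, the desaturase before DHCR7, by -0.34. LBR, which doubles as a protein of the nuclear membrane and can reduce the same bond as TM7SF2, stood at 0.00 with 6N, with TM7SF2 among the 5 that fell, at -0.34. The count of 5 was 1 to 4 with a library left out (edgeR). TM7SF2 lost its call without any 1 of the libraries but 6N replicate 1, PGRMC1 without any but DMSO replicate 3, SC5D without DMSO replicate 1 or 6N replicate 2, and ERG28 without 6N replicate 2. With DLPC 0 of these 6 were called, with ERG28 at 0.25. Of 9 tested genes of SREBP2 control and cholesterol uptake, 4 fell with 6N, among them STARD4, a carrier of cholesterol between membranes (-0.49), and 2 rose with DLPC, STARD4 (0.32) among them. STARD4 lost that call with each of the 6 libraries of the comparison left out (edgeR, adjusted p 0.0871 to 0.193). None of either list was called with 10CA or 6N-10CA against DMSO.

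The squalene-to-cholesterol genes varied together across libraries. Over the 18 libraries the mean centred log2 CPM of the 9 members and that of the 9 genes of the mevalonate arm had a Pearson r of 0.994, as a description of points that share library, depth and treatment. Among the 36 pairs of members, r over the 18 libraries ran from 0.733 (MSMO1 and EBP) to 0.970 (FDFT1 with LSS and with SQLE), with a median of 0.92. Once each group's mean was taken away, r among the same pairs ran from -0.48 (LSS and HSD17B7) to 0.78 (FDFT1 and DHCR7), with a median of 0.31. Within groups, all 9 members were above the group's mean in DMSO replicate 2, 6N replicate 1, 10CA replicate 2 and ethanol replicate 1, and all 9 below it in 6N replicate 2. The mean deviation over the members lay between -0.06 and 0.08 log2 units in the 18 libraries.

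**Figure D5:**
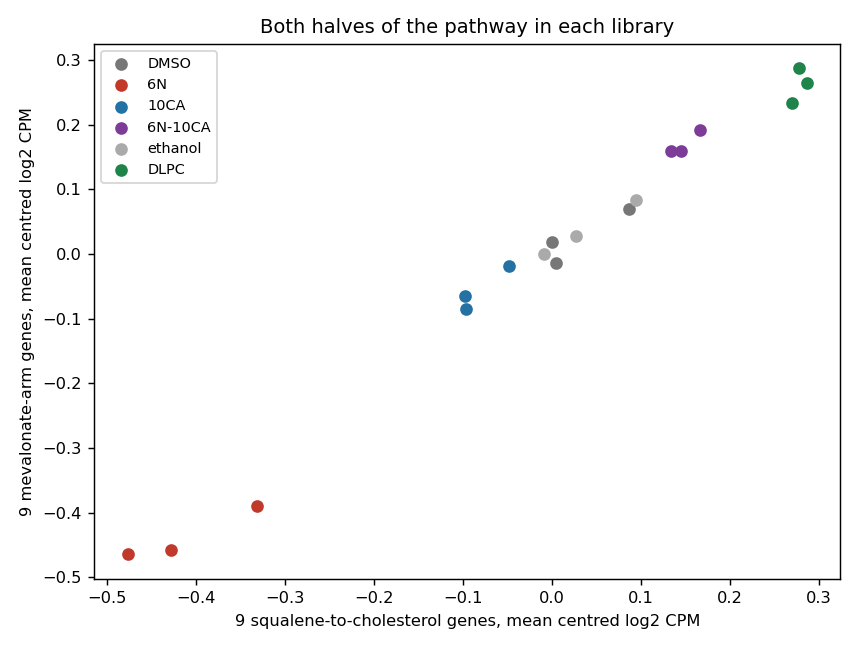
Mean centred log2 CPM of the 9 mevalonate-arm genes (y axis) against that of the 9 squalene-to-cholesterol genes (x axis) in each of the 18 libraries, coloured by group. The 6N libraries lie apart at the lower left, the vehicles near 0 and the DLPC libraries at the upper right, with r at 0.994.

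The genes whose level was most like that of the members were taken from the 10686 genes that averaged 5 CPM or more, by Pearson r with the members' mean centred log2 CPM over the 18 libraries, which share depth and treatment. MVD stood first of all (0.99), ahead of the members, which are part of that mean. Outside the members and the sterol lists the 5 highest were ACSS2 (0.98), which makes acetyl-CoA from acetate, ACLY (0.98), which makes it from citrate, the cytokine gene IL17B (0.96), and the desaturase genes SCD (0.955) and FADS1 (0.954). EBP, at 0.86, had the lowest r of the members. Of the 50 genes with the highest r, 8 were members, 7 belonged to the mevalonate arm, 3 to the other late steps and 4 to SREBP2 control and uptake, and 0 of 9 to cholesterol use and export. With 6N, IL17B changed by -1.31, SCD by -0.81 and ACSS2 by -0.71, and with DLPC they changed by 0.47, 0.32 and 0.50. The DLPC call of IL17B (edgeR, adjusted p = 0.0494) was lost with each of the 6 libraries left out (0.0523 to 0.249).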

How the data were processed

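RNA from HepG2 cells was measured in 18 libraries of 6 groups. Counts per gene were deposited by the authors as raw whole numbers under gene symbols. The submitters' processing notes name GRCh38 and DESeq2. The aligner, the counting tool and the strand setting are not known. Overlapping genes on opposite strands therefore cannot be separated in the counts. In GENCODE 29, opposite-strand exons of AP001468.1 cover 6.19% of the exon bases of LSS, and those of AP001469.1 cover 1.69%. Such exons cover 4.17% of the exon bases of FDFT1 and 3.85% of those of CYP51A1. Groups came from the treatment labels.

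Genes were kept by edgeR's filterByExpr, which left 14797 of 35238. A single fit held all 18 libraries, with group means only and TMM scaling. The 8 comparisons used the quasi-likelihood test of edgeR 4.0.16 in R 4.3.3, two-sided, with Benjamini-Hochberg adjustment over all genes and a threshold of 0.05. The fit was also run on simulated counts, drawn independently for each library. That run held no likeness between libraries of the same replicate number and so cannot speak to it. SE and 95% intervals come from the fit to the deposited counts. Total counts of 28135967 to 34992442 put 3 counts at 0.0857 to 0.107 CPM; counting error only. Replicate pairs differed by more than sampling noise (chi-square 4.70 to 14.7 per gene), and none was counted as a copy.

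The members and lists were chosen with earlier results of these data known. Named genes were the 9 members, up to 3 genes per list and direction with the smallest p among those called, and the 5 most alike in level; PMVK, GGPS1, LBR, TM7SF2 and the DLPC value of ERG28 were added after their values were seen. A few genes under the rule are not reported here. Positions are from GENCODE 29, promoters from RefSeq. Alternatives were DESeq2 1.42.0, limma-voom (limma 3.58.1), other scalings, no filter, other vehicles, fewer groups, a block on replicate number, and each library left out.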

Additional observations from a re-analysis of the deposited data

How the results depend on the processing

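Of 720 alternative values of single members, 669 kept their side of the threshold, 17 were no longer called and 34 were newly called, counting of the fits without 1 library those with the lowest and the highest value. For 38 other genes of the sterol lists and the likeness search, 2885 of 3040 values kept their side, 48 were no longer called and 107 were newly called. The sign differed from the reported value in 15 values of members and 116 of other genes, 0 of which were called in either fit. Of the 15, 13 were between vehicles, and the others were HSD17B7 in 6N-10CA against DMSO and EBP in 10CA against 6N (0.03, and -0.02 with a library left out). The count of members called kept within 1.5 times its value in every alternative for 6N against DMSO (7 to 9 of 9), 6N-10CA against 6N (7 to 9), 10CA against 6N (5 to 8), DLPC against ethanol (3 to 6) and ethanol against DMSO (0). For 6N-10CA against DMSO, where 0 of 9 were called, the count was 1 with library totals, 1 with DESeq2, 1 against the mean of both vehicles and 2 without the filter on low counts. Its members' median of 0.09 lay between 0.075 and 0.144 when single libraries were left out. For 6N-10CA against 10CA, where 2 of 9 were called, the count was 4 with library totals, 4 without the filter, 5 with DESeq2, 1 with only the groups of the comparison, and 0 to 2 with single libraries left out. Other than with the exchanged vehicle for 6N and DLPC and with the replicate block, the share of all genes called was not counted. The counts of members in those fits cannot be set against it. The cause of the differences between fits was not tested. Scaling moved the median of all genes by at most 0.0181 log2 units.

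The main fit did not treat the replicate numbers as pairs, since the labels give no shared culture or day. Same-numbered libraries were alike all the same. Of 45 correlations between deviations of same-numbered libraries of different groups, 43 were over 0.1 (range -0.01 to 0.59, median 0.31). For 18 of 18 libraries, the mean correlation with libraries of other groups was highest for those of the same number. The main fit leaves this likeness in its spread. Its common coefficient of variation beyond counting error was 6.96%, and 4.42% with the block. With the replicate number as a block, the count of members called was 9 for 6N against DMSO, 1 for 10CA against DMSO (EBP), 3 for 6N-10CA against DMSO (FDFT1, LSS and DHCR7), 6 for DLPC against ethanol, 8 for 10CA against 6N, 9 for 6N-10CA against 6N, 6 for 6N-10CA against 10CA and 0 between vehicles. The block raised the share of all genes called as well: lower with 6N from 0.845% to 2.39%, lower with 10CA from 0% to 0.0879%, and higher with 6N-10CA from 0.142% to 1.68% and with DLPC from 0.629% to 3.6%. Between compounds the share called higher went from 1.05% to 4.14% for 10CA against 6N, from 1.12% to 3.9% for 6N-10CA against 6N and from 0.196% to 1.4% for 6N-10CA against 10CA, and between vehicles the share called went from 0% to 0.122%. Counts of 1378 to 27243 per library put every member far above the floor of 3 counts.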

Other observations

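Of 9 tested genes of cholesterol use and export, 1 fell with 6N: MYLIP, a ubiquitin ligase and a target of LXR, changed by -1.03 (SE 0.11), from 10.3 ± 0.841 to 5.04 ± 0.356 CPM (mean ± SD, n = 3). Against 6N, MYLIP was higher with 10CA by 0.89 and with 6N-10CA by 0.76, and CYP7A1, which catalyses the first step from cholesterol to bile acids, changed by -0.49 from 6N to 10CA, and CYP27A1, a sterol hydroxylase of the same route, by -0.20. CYP7A1 was higher with 6N-10CA than with 10CA by 0.54 (edgeR, adjusted p = 0.03), but not called without 10CA replicate 2 or 3 or 6N-10CA replicate 1 or 2 (adjusted p up to 0.218). From 6N to 10CA, CYP7A1 lost its call without 6N replicate 1 or 10CA replicate 3, and CYP27A1 with each library left out but 6N replicate 2. With DLPC against ethanol 0 of the 9 were called by edgeR.

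INSIG1 encodes a protein that holds SREBP in the endoplasmic reticulum and is itself a known SREBP target. Its row held 0 to 3 counts in every library and was not tested. The gene was singled out after its values were seen. A counting tool is not given in the sources used here, so the row does not show that the cells lacked this mRNA. The LXR target gene ABCG1, a sterol exporter, held 0 to 9 counts and was not tested either.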
